A study of Homo sapiens with 18 samples.

Results

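LNCaP cells, a human prostate adenocarcinoma line that responds to androgen, were treated with BD98 at 2 µM or with DMSO vehicle, and polyadenylated RNA was sequenced 72 h later. The comparison takes 6 of the 18 libraries of the series, 3 with BD98 and 3 with DMSO, and covers every gene of the deposited count table: 20145 were listed and 15422 had enough reads to be tested. The other 12 libraries came from the same line after 72 h with 2-77 at 1 µM, ACBI at 0.2 µM, P-16 at 10 µM or ENZA (enzalutamide, an antiandrogen) at 10 µM, in 3 libraries each. Cells of all 6 groups grew in RPMI with fetal bovine serum. The title of the series concerns inhibitors aimed at BRD7, which is a bromodomain protein of the chromatin remodeller PBAF; the labels name no target for BD98. Nothing in the labels says that replicates were separate cultures, so p-values here reflect how far these libraries spread and no more.

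The programs that recur in the results need some background. In the integrated stress response, kinases that sense scarce amino acids, misfolded protein or other stress phosphorylate the translation factor eIF2, which favours translation of the transcription factor ATF4; ATF4 then drives genes for amino acid synthesis, amino acid import and tRNA charging. In luminal prostate cells androgen induces secretory genes such as KLK3, which encodes prostate-specific antigen, and represses others, among them UGT2B enzymes that glucuronidate androgens. Interferon-stimulated genes are antiviral genes switched on by a complex that holds STAT2 and IRF9.

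The BD98 libraries held 16835093 to 28892825 counts and the DMSO libraries 17210738 to 22611562, and ribosomal RNA transcripts took 0.639 to 1.02% and 0.65 to 1.62% of them. Levels are given as normalised CPM, that is CPM of a library size scaled by TMM. In these units 3 counts, taken as the floor, were 0.1 to 0.171 CPM in the BD98 libraries and 0.134 to 0.175 CPM in the DMSO libraries. On the third principal component of all 18 libraries, which held 9.34% of the variance, the BD98 libraries lay between 23.3 and 25.6 and the DMSO libraries between -34.8 and -33.0. All 10 luminal markers were measured in the cells, and the defining immune marker PTPRC was at 0 in all 6 libraries. The summed luminal level was 6440 to 6651 CPM with BD98 and 8754 to 8821 CPM with DMSO (exact permutation test, two-sided, p = 0.1, the smallest that 3 against 3 can give), and KLK3 was its largest member in every library. The summed basal level was 18.5 to 20.2 CPM against 19.1 to 21.6 CPM (exact permutation p = 0.3) and the immune level 5.62 to 7.18 CPM against 6.69 to 7.26 CPM (exact permutation p = 0.2). Among the libraries of the other compounds, ACBI replicate 3 stood apart: ribosomal RNA transcripts took 8.60% of it, against 0.99 and 1.13% of the other ACBI libraries, and its counts differed from theirs by a chi-square per degree of freedom of 108 and 128, against 2.88 between those 2.

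With TMM scaling, close to as many genes rose as fell with BD98, mostly by small amounts, but the large changes were mainly falls. The even split depends on the scaling. With edgeR's quasi-likelihood test and Benjamini-Hochberg adjustment, 7559 of the 15422 genes passed an adjusted p of 0.05 (49.0%), 3783 higher (24.5%) and 3776 lower (24.5%) in BD98. Scaled to raw library totals in place of TMM, 61.8% of the calls were higher in BD98, against 50% with TMM. The median size of a called change was 0.34 (log2). In bulk RNA, fewer cells with a transcript and less of it per cell cannot be told apart, here and in all that follows. At least 2-fold, 235 genes rose (1.52%) and 598 fell (3.88%), and at least 8-fold, 5 rose and 46 fell. Many of the 2-fold changes were in genes of low level: with a mean of at least 2 CPM required, 92 genes rose and 297 fell at least 2-fold. The 3 BD98 libraries did not overlap the 3 DMSO libraries in 8654 genes (56.1%). Most genes shown by library below were chosen by small p or lack of overlap in these same libraries, so separate groups follow from it. The list counts below are to be read beside the 49.0% of all genes called. Of the 30 gene lists, 29 had a larger share of members called, so a larger share alone sets no list apart.

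**Figure D1:**
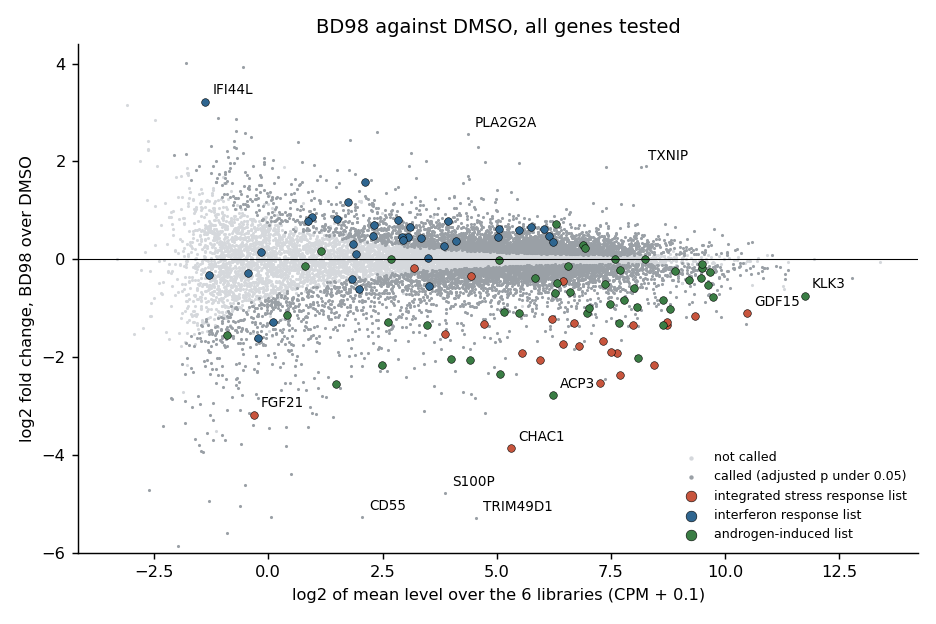
Log2 fold change of BD98 over DMSO (vertical axis) against the log2 of the mean level over the 6 libraries (horizontal axis, CPM + 0.1), 1 point per gene for 15422 genes. Dark grey points passed an adjusted p of 0.05, and coloured points are the members of 3 gene lists. The integrated stress response list lies wholly below 0, with CHAC1 at -3.87, while most of the interferon list lies above 0.

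The 12 largest falls are given for genes whose groups did not overlap and whose higher group averaged at least 4 CPM, so the lack of overlap comes from the choice of genes; some genes of lower level fell further. They were of unlike function. CD55 (decay-accelerating factor, which shields cells from complement; chromosome 1, 207321678 to 207360966 on hg38) had 0.172, 0.171 and 0.234 CPM in BD98 libraries, against 8.15, 7.79 and 7.62 CPM in DMSO libraries. That is 14 counts in all 3 BD98 libraries together, against 465 in the 3 DMSO libraries, and all 3 BD98 values lay close to the floor. The fitted fall was 38.7-fold (log2 -5.27, SE 0.25, adjusted p = 1.01e-16). S100P, a calcium-binding protein, had 0.687, 0.969 and 1.31 CPM with BD98 and 29.8, 26.4 and 27.5 CPM with DMSO (log2 -4.78, SE 0.15, adjusted p = 5.55e-21). CAPN5, a calpain protease, had 6.65, 4.05 and 5.46 CPM with BD98 and 52, 46.2 and 46.6 CPM with DMSO (log2 -3.14, SE 0.10). For both genes every BD98 library lay far below every DMSO library. TRIM49D1, of the TRIM49 family of near-identical copies, had 1.03, 0.399 and 1.74 CPM with BD98 and 42.8, 47.6 and 46.4 CPM with DMSO (log2 -5.29); reads could not be assigned with certainty between it and TRIM49D2 (log2 -2.66).

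The other leading falls included a thyroid hormone enzyme and a prostate secretory enzyme. DIO3, the deiodinase that inactivates thyroid hormone, had 5.88, 5.01 and 5.83 CPM in BD98 libraries and 40.0, 42.2 and 38.6 CPM in DMSO libraries (log2 -2.84, SE 0.072). ACP3, prostatic acid phosphatase, had 17.7, 20.1 and 19.3 CPM with BD98 and 128, 132 and 133 CPM with DMSO (log2 -2.78, SE 0.05, adjusted p = 1.04e-26). LRATD1 fell by 9.32-fold, PDE2A, a cGMP-stimulated phosphodiesterase, by 7.05-fold, NIBAN1 by 6.71-fold and AKAP5, which anchors protein kinase A, by 6.65-fold. Another of these falls, CHAC1, belongs to the integrated stress response and is described with it.

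The 12 largest rises under the same limits were smaller than these falls, from 1.88 to 2.61 on the log2 scale, while some genes of lower level rose further. PLA2G2A, a secreted phospholipase A2 (chromosome 1, 19975431 to 19980434 on hg38), had 33.5, 36.1 and 35.7 CPM with BD98 and 5.99, 5.51 and 6.24 CPM with DMSO, a 5.92-fold rise (log2 2.57, SE 0.10, adjusted p = 4.37e-19). TNC, the matrix protein tenascin C, had 6.35, 4.73 and 5.86 CPM with BD98 and 0.873, 1.11 and 1.11 CPM with DMSO (log2 2.44, SE 0.22). S1PR3, a sphingosine 1-phosphate receptor, had 42.6, 44.2 and 41 CPM with BD98 and 10.6, 10.4 and 11.4 CPM with DMSO (log2 1.98, SE 0.08). All 3 genes were higher in each BD98 library than in any DMSO library. S1PR3 overlaps C9orf47 on the same strand, so some of its reads may be from that gene (log2 0.95).

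CD24, a small surface glycoprotein, had 37.2, 43.2 and 38.4 CPM with BD98 and 7.97, 7.18 and 9.05 CPM with DMSO (log2 2.29, SE 0.10), and its reads may be shared with processed copies elsewhere in the genome. TXNIP, an arrestin-like protein that binds thioredoxin and curbs glucose uptake, had 438, 456 and 450.2 CPM with BD98 and 126, 119 and 118 CPM with DMSO (log2 1.89, SE 0.036, adjusted p = 2.8e-26). UBA7, the activating enzyme for the ubiquitin-like protein ISG15, had 13.6, 12.4 and 13.7 CPM with BD98 and 4.02, 2.68 and 3.88 CPM with DMSO (log2 1.91, SE 0.16). Here too no library of one group reached the other group's range. MID1, a microtubule-associated ubiquitin ligase, rose by 4.54-fold. KTI12 rose by 6.1-fold, but it lies within TXNDC12 on the same strand (log2 -0.32 for that gene), so its value is uncertain. The remaining 4 of the 12 were UGT2B10 (log2 2.00, SE 0.14) and, given with the androgen-repressed genes, UGT2B11, UGT2B15 and UGT2B17.

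**Figure D2:**
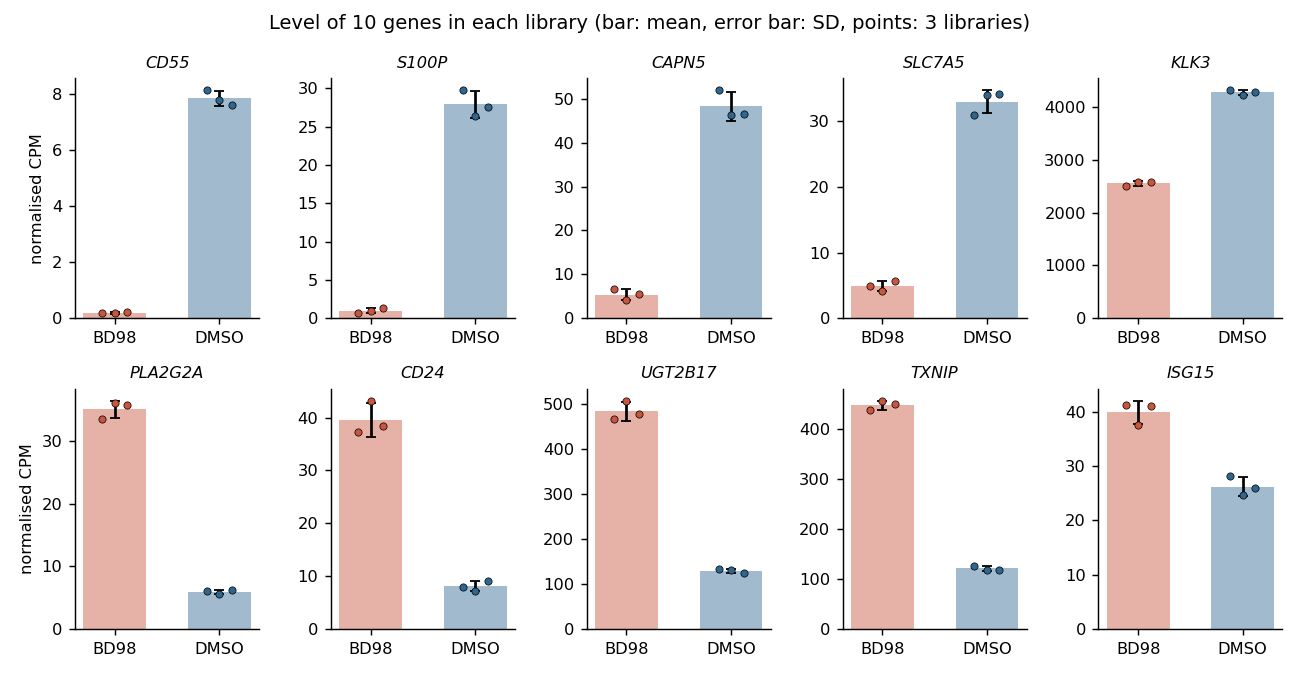
Normalised CPM (vertical axes, linear from 0) of 10 genes in the 3 BD98 libraries and the 3 DMSO libraries. Bars are means, error bars SD and points single libraries. The upper row fell with BD98, CD55 to a level close to 0, and the lower row rose. In none of the 10 genes do the groups overlap.

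The integrated stress response list fell almost as a whole. Of its 24 members, all measured, 23 fell, 0 rose and 1 was not called, and 21 fell at least 2-fold. Their median log2 fold change was -1.60, against -0.0021 over all genes tested. ATF4 itself, the transcription factor at the centre of the response, had 381, 402 and 425 CPM with BD98 and 913, 883 and 907 CPM with DMSO (log2 -1.16, SE 0.036, adjusted p = 3.94e-21). DDIT3, which encodes the transcription factor CHOP, had 23.4, 23.3 and 24.5 CPM with BD98 and 103, 95.8 and 101 CPM with DMSO (log2 -2.07, SE 0.053). Both regulators were lower in every BD98 library. DDIT3 overlaps MARS1 on the other strand, which fell by less (log2 -0.78). ATF3 (log2 -1.91), CEBPB (log2 -1.74), CEBPG (log2 -1.31) and JDP2 (log2 -1.33), further transcription factors of this network, fell as well, and ATF5 fell by less (log2 -0.44).

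Among the effectors, CHAC1, which degrades glutathione (chromosome 15, 40953471 to 40956512 on hg38), had 5.11, 5.36 and 4.92 CPM with BD98 and 76, 73.4 and 74 CPM with DMSO, a 14.6-fold fall (log2 -3.87, SE 0.081, adjusted p = 1.73e-25). TRIB3, a pseudokinase that restrains ATF4, had 69.1, 65.2 and 66.8 CPM with BD98 and 344, 335 and 357 CPM with DMSO (log2 -2.37, SE 0.041). ASNS, asparagine synthetase, had 77.5, 77.8 and 75.4 CPM with BD98 and 284, 289 and 280.2 CPM with DMSO (log2 -1.89, SE 0.037), and the readthrough gene CZ1P-ASNS over it fell too (log2 -1.38). The 3 effectors were tight within each group and far apart between groups. STC2, the secreted stanniocalcin 2, fell by 3.78-fold, the secreted peptide ADM2 by 3.41-fold, SESN2, a sestrin that restrains mTORC1, by 2.34-fold, DDIT4, an inhibitor of mTORC1, by 2.42-fold, and GDF15, a secreted stress cytokine, by 2.14-fold, to 907, 882 and 931 CPM with BD98, against 1949, 1889.8 and 1995 CPM with DMSO. NUPR1, a small stress-induced nuclear protein, fell by 2.52-fold, but EIF3C and EIF3CL overlap it on the same strand (log2 -0.42 and -0.39).

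FGF21, a secreted hormone of this response, had 10 counts over the 3 BD98 libraries, with 0 in replicate 2, and 77 over the 3 DMSO libraries. The ratio of DMSO to BD98 was 9.17 (95% exact interval 4.73 to 19.9, counting error only). VLDLR, a lipoprotein receptor, fell by less (log2 -0.35). The member not called was PPP1R15A, the regulatory subunit that returns eIF2 to its unphosphorylated state, with 7.17, 8.89 and 9.08 CPM with BD98 and 10.0, 9.96 and 8.69 CPM with DMSO (log2 -0.18, adjusted p = 0.14), and its groups overlap.

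**Figure D3:**
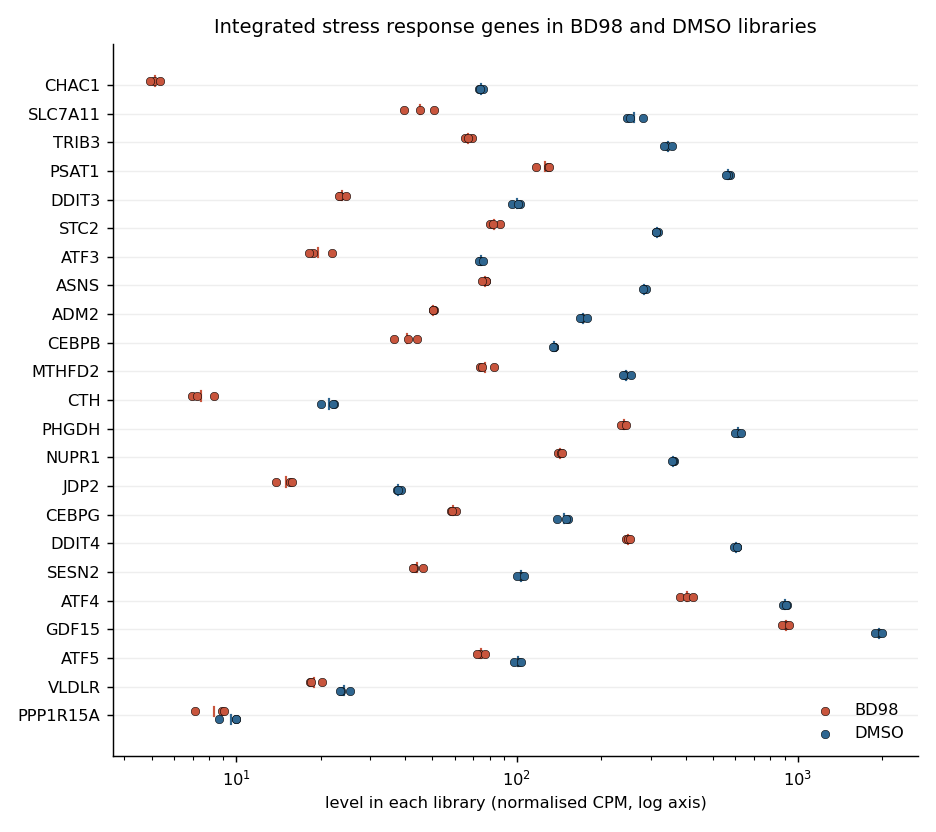
Normalised CPM in each library (horizontal log axis) of 23 of the 24 integrated stress response genes; FGF21 is left out because a BD98 library has 0. Red points are BD98 libraries, blue points DMSO libraries and short vertical lines group means. The groups are apart in 22 of the rows and overlap for PPP1R15A.

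Amino acid transporters and enzymes were mostly lower too, some of them members of the list above. Of 16 amino acid transporters, 13 fell, 2 rose and 1 was not called (median log2 -1.14), and 10 fell at least 2-fold. SLC7A5, the light chain of the large neutral amino acid exchanger LAT1, had 4.98, 4.16 and 5.69 CPM with BD98 and 31, 34 and 34.1 CPM with DMSO (log2 -2.71, SE 0.093, adjusted p = 3.16e-20). SLC1A5, a glutamine transporter, had 50.8, 51.6 and 52 CPM with BD98 and 271, 273 and 293 CPM with DMSO (log2 -2.44, SE 0.043). SLC7A11, the cystine importer, which is also on the integrated stress response list, had 50.6, 45.4 and 39.8 CPM with BD98 and 246, 282 and 253 CPM with DMSO (log2 -2.53, SE 0.11). Each was lower in all 3 BD98 libraries. The antisense gene SLC7A11-AS1 overlaps SLC7A11 and also fell (log2 -3.44); whether the counting used strand is not given in the sources used here. SLC6A9, a glycine transporter, fell by 4.59-fold, SLC38A1 by 2.29-fold and SLC7A1, which imports cationic amino acids, by 2.06-fold. The 2 that rose were SLC7A6 (log2 0.29) and SLC38A9 (log2 0.19), named after their values were seen; 1 of them was not called without BD98 replicate 2 or 3 or DMSO replicate 2.

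Of 19 enzymes of serine synthesis and one-carbon metabolism, 12 fell, 4 rose and 3 were not called (median log2 -0.63). PHGDH, PSAT1, MTHFD2 and CTH are also on the integrated stress response list, and of the other 15 enzymes 8 fell. PHGDH, which commits glycolytic carbon to serine, had 240.1, 234 and 246 CPM with BD98 and 611, 597 and 629.5 CPM with DMSO (log2 -1.35, SE 0.036). PSAT1, the next enzyme of the route, had 129, 130.3 and 117 CPM with BD98 and 575, 566 and 554 CPM with DMSO (log2 -2.17, SE 0.042, adjusted p = 2.8e-26). MTHFD2, of the mitochondrial folate pathway, had 74.2, 82.6 and 75.1 CPM with BD98 and 244, 255 and 238 CPM with DMSO (log2 -1.67, SE 0.043). In all 3 the BD98 libraries formed a separate, lower group. SHMT2 (log2 -0.92) and MTHFD1L (log2 -1.21), mitochondrial enzymes of the same pathway, fell too, while the cytosolic MTHFD1 (log2 0.17) and SHMT1 (log2 0.41), with MTR (log2 0.33) and TYMS (log2 0.21), rose.

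The aminoacyl-tRNA synthetases, which load amino acids onto tRNAs, are given by compartment. Of 20 cytosolic synthetases, 15 fell, 1 rose and 4 were not called (median log2 -0.53). Of 17 mitochondrial synthetases, 6 fell, 1 rose and 10 were not called (median log2 -0.10), so 41.2% were called, against 49.0% of all genes, and there was no rise without BD98 replicate 1 or 3 or DMSO replicate 3. GARS1, for glycine, had 127, 129 and 134 CPM with BD98 and 336, 331 and 339 CPM with DMSO (log2 -1.37, SE 0.038, adjusted p = 1.68e-22). SARS1, for serine, had 156, 163 and 166 CPM with BD98 and 376, 374 and 369 CPM with DMSO (log2 -1.20, SE 0.034). Their groups lay well apart. AARS1 fell by 1.82-fold, YARS1 by 1.92-fold and CARS1 by 1.97-fold, while QARS1 rose (log2 0.12, not called without BD98 replicate 3 or DMSO replicate 2 or 3) and VARS1 (log2 -0.03) and HARS1 (log2 0.01) were not called. The mitochondrial synthetase with the smallest p, MARS2, fell (log2 -0.50). The difference between the compartments was not tested.

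Promoter letters are shown for these lists because ATF4 with a C/EBP partner is known to bind the C/EBP-ATF response element, searched here as TGATGNAA on both strands of the RefSeq window from 250 bases before to 50 bases after each gene's start (GRCh38.p14). The match stood in 1270 of 35116 windows (3.62%) and in 323 of the 11726 tested genes with a window (2.75%). It stood in 6 of 22 integrated stress response genes with a window, in 5 of 14 amino acid transporters and in 7 of 16 cytosolic synthetases, and all 18 of these fell. It also stood in 1 of 14 serine and one-carbon genes (MTHFD1L, which fell) and in 1 of 14 mitochondrial synthetases (YARS2, not called). Without the match, 15 of 16 integrated stress response genes, 6 of 9 transporters and 5 of 9 cytosolic synthetases fell. In the lines that follow, 30 bases are given 5′ to 3′ on the gene's strand, with the match in capitals.
CHAC1, chr15:40953251-40953280, plus strand: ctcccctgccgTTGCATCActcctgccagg
ASNS, chr7:97872458-97872487, minus strand: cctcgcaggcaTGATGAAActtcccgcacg
CEBPG, chr19:33374060-33374089, plus strand: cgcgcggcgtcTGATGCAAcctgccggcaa
JDP2, chr14:75427995-75428024, plus strand: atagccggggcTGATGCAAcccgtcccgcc
SLC1A5, chr19:46784893-46784922, minus strand: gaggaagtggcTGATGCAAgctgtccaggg
SLC1A4, chr2:64989381-64989410, plus strand: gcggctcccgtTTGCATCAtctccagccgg
GARS1, chr7:30594834-30594863, plus strand: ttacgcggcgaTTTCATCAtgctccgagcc
MARS1, chr12:57488053-57488082, plus strand: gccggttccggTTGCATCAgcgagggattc
CARS1, chr11:3057407-3057436, minus strand: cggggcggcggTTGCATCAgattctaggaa

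The match begins 209 bases before the start of CHAC1, 68 before that of ASNS and 4 before that of MARS1. CHAC1, CEBPG, JDP2, SLC1A5, SLC1A4, MARS1 and CARS1 carry TGATGCAA on one of the strands, and ASNS and GARS1 carry TGATGAAA. Over all 323 tested genes with the match, 124 fell (38.4%) and 65 rose (20.1%), and the median log2 fold change was -0.13, against 0.0064 for genes without it. A match describes letters and is not a binding site.

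The unfolded protein response list fell by less. Of 20 genes, 15 fell, 1 rose and 4 were not called (median log2 -0.22). ERN1, the sensor IRE1, had 38.2, 41.4 and 39.4 CPM with BD98 and 83.8, 87.1 and 88.3 CPM with DMSO (log2 -1.13, SE 0.046), and its target XBP1 fell by 1.75-fold. HERPUD1 (log2 -0.90), SEL1L (log2 -0.60) and DNAJB9 (log2 -0.76), which serve the degradation of misfolded protein, fell as well. Named after their values were seen, the chaperone HSPA5 (BiP) fell by a small amount (log2 -0.14) and CALR rose (log2 0.21). In the heat shock list of 19, 9 rose, 3 fell (5 without BD98 replicate 3, 7 without the ACBI libraries) and 7 were not called (median log2 0.09): HSP90AA1 had 1686, 1743 and 1746 CPM with BD98 and 1376, 1364 and 1290.1 CPM with DMSO (log2 0.36), DNAJB1 rose (log2 0.35) and the mitochondrial chaperonin HSPD1 fell (log2 -0.62). HSPA1B rose (log2 0.39), but reads may be shared with its near-identical copy HSPA1A (log2 -0.06, not called).

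Genes that androgen induces were mostly lower with BD98, with unequal sizes. Of 48 measured, 38 fell, 3 rose and 7 were not called (median log2 -0.72), and 17 fell at least 2-fold. KLK3 had 2499.6, 2583 and 2588 CPM with BD98 and 4325, 4232 and 4276 CPM with DMSO (log2 -0.74, SE 0.031, adjusted p = 5.69e-18). SLC45A3, the prostein transporter, had 102, 110.0 and 113 CPM with BD98 and 445, 429 and 447 CPM with DMSO (log2 -2.02, SE 0.05). PMEPA1, a transmembrane inhibitor of SMAD signalling, had 117, 117 and 119.9 CPM with BD98 and 296, 292 and 289.8 CPM with DMSO (log2 -1.31, SE 0.035). No BD98 library reached the DMSO range in any of them. ADAMTS1, a secreted protease, fell by 2.53-fold and TMPRSS2, a surface protease, by 1.3-fold. The antiandrogen ENZA lowered 38 of the 48 genes against DMSO and raised 5, where 36.3% of all genes were called in either direction. Among those it raised were ACP3 (log2 0.44) and ADAMTS1 (log2 0.11), the members with the smallest p in BD98 against DMSO. FKBP5, a cochaperone of steroid receptors, fell by a small amount (log2 -0.13) and NDRG1 was not called (log2 0.01); both were named after their values were seen.

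Androgen-repressed genes went both ways: of 17, 7 rose, 7 fell and 3 were not called (median log2 -0.15, mean 0.30). The rises were led by the UGT2B enzymes. UGT2B17 had 465, 507 and 477 CPM with BD98 and 133, 130.3 and 123 CPM with DMSO (log2 1.91, SE 0.039). UGT2B15 had 263, 280.3 and 247 CPM with BD98 and 72.3, 68.2 and 73.5 CPM with DMSO (log2 1.88, SE 0.046), and UGT2B11 71.4, 71.5 and 70.4 CPM with BD98 and 18.9, 18.5 and 17.4 CPM with DMSO (log2 1.96, SE 0.069). All 3 rose by nearly the same factor. These genes are close copies of each other on chromosome 4, so reads may have been split or shared among them. CAMK2N1, an inhibitor of CaMKII, had 341, 345 and 320.1 CPM with BD98 and 197, 205 and 209 CPM with DMSO (log2 0.72) and BCHE, butyrylcholinesterase, rose by 1.98-fold. SI, sucrase-isomaltase, named after its value was seen, fell to 0.386, 0.513 and 0.703 CPM with BD98, against 2.04, 2.53 and 2.32 CPM with DMSO (log2 -2.06).

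Cell cycle genes split by phase. Of 38 DNA replication genes, 21 rose, 5 fell and 12 were not called (median log2 0.18), whereas of 38 mitosis genes 25 fell, 1 rose and 12 were not called (median log2 -0.23). None of these changes reached 2-fold. PCNA, the sliding clamp, had 149, 153 and 152 CPM with BD98 and 116.5, 109 and 113 CPM with DMSO (log2 0.42, SE 0.046, adjusted p = 1.2e-08). FEN1, the flap endonuclease, had 100.01, 101 and 111 CPM with BD98 and 76.7, 77.9 and 76.2 CPM with DMSO (log2 0.44, SE 0.053). The replicative helicase subunits MCM3 (log2 0.31) and MCM4 (log2 0.34) rose, and the licensing factor CDT1, named after its value was seen, fell (log2 -0.45). CENPE, a kinesin of the kinetochore, had 21.1, 19.9 and 18.7 CPM with BD98 and 36.8, 41.8 and 36.6 CPM with DMSO (log2 -0.95, SE 0.076). PLK1, a mitotic kinase, had 50.6, 51.9 and 56.4 CPM with BD98 and 73.9, 69.7 and 76.5 CPM with DMSO (log2 -0.47, SE 0.059). These 4 genes given by library were chosen among those of smallest p, so that their groups do not overlap follows from the choice. MKI67, the proliferation antigen, had 218, 212 and 241 CPM with BD98 and 224, 235 and 231 CPM with DMSO and was not called (log2 -0.04, adjusted p = 0.46).

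MYC and the genes of ribosome biogenesis fell: of 30, 24 fell, 2 rose and 4 were not called (median log2 -0.26), and none reached 2-fold. MYC had 243, 239 and 251 CPM with BD98 and 462, 473 and 489 CPM with DMSO (log2 -0.96, SE 0.042, adjusted p = 1.79e-17), so no BD98 library came near a DMSO library. The nucleolar proteins GNL3 (log2 -0.60) and NPM1 (log2 -0.51) fell. ODC1, which starts polyamine synthesis, had 410.1, 429 and 427 CPM with BD98 and 585, 573 and 575 CPM with DMSO (log2 -0.45), and SRM, spermidine synthase, fell too (log2 -0.47). Over the 15 polyamine genes, 8 fell, 4 rose (2 without BD98 replicate 3) and 3 were not called (median log2 -0.23): AMD1, which supplies the aminopropyl donor, and AZIN1, the antizyme inhibitor, fell (log2 -0.46 and -0.30), while the antizyme OAZ2 rose (log2 0.28).

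Among 20 immediate-early genes and feedback genes of growth factor signalling, 12 fell, 2 rose and 6 were not called (median log2 -0.36). FOS had 0.386, 0.342 and 0.435 CPM with BD98 and 3.2, 3.94 and 3.52 CPM with DMSO (log2 -3.16, SE 0.24, adjusted p = 6.25e-12). JUN, its partner in AP-1, had 90.3, 83.7 and 87.4 CPM with BD98 and 115, 112 and 112 CPM with DMSO (log2 -0.37, SE 0.039). Both were lower in every BD98 library, FOS by far more. The BD98 values of FOS lay not far above the floor (0.1 to 0.171 CPM), so the size of its fall is uncertain. The ERK phosphatase DUSP4 fell (log2 -0.49). DUSP5, another ERK phosphatase, fell to 0.343, 0.684 and 0.938 CPM with BD98, against 3.67, 3.19 and 3.25 CPM with DMSO (log2 -2.31). FOSL2 (log2 0.50) and PHLDA1 (log2 1.62) were the 2 that rose. DUSP5 and PHLDA1 were named after their values were seen.

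**Figure D4:**
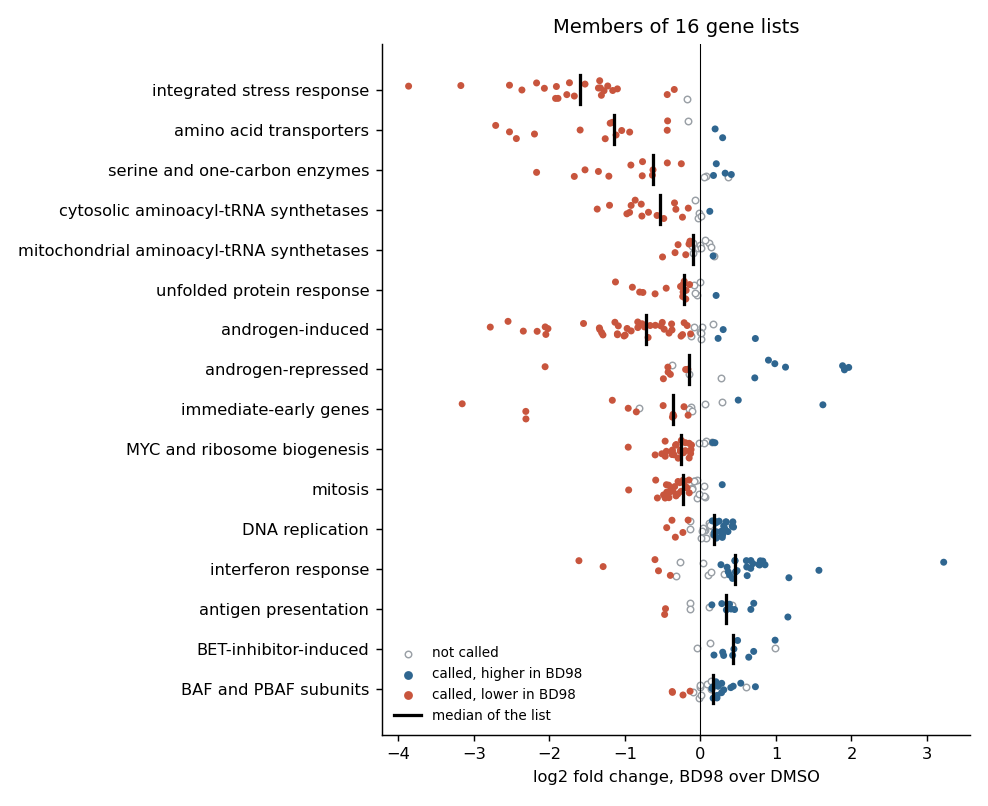
Log2 fold change of BD98 over DMSO (horizontal axis) for the members of 16 gene lists, 1 point per gene. Filled blue points passed an adjusted p of 0.05 and were higher in BD98, filled red points passed and were lower, open points did not pass, and the black line is the median. The medians run from -1.60 for the integrated stress response to 0.46 for the interferon list.

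Most measured interferon-stimulated genes rose, from low levels in many cases. Of 35, 24 rose, 5 fell and 6 were not called (median log2 0.46). STAT2, a subunit of the factor that switches them on, had 81, 76.5 and 80.0 CPM with BD98 and 54.4, 50.1 and 50.5 CPM with DMSO (log2 0.62, SE 0.057, adjusted p = 3.72e-10). ISG15, the ubiquitin-like modifier that UBA7 activates, had 41.2, 37.5 and 41.2 CPM with BD98 and 28.2, 24.6 and 25.9 CPM with DMSO (log2 0.61, SE 0.069). SAMD9, an antiviral protein, had 6.09, 6.27 and 6.8 CPM with BD98 and 1.98, 2.38 and 2.09 CPM with DMSO (log2 1.57, SE 0.18). The libraries did not overlap in any of the 3. PARP9 (log2 0.67) and OAS3, which senses double-stranded RNA (log2 0.61), rose as well. IFI44L had 36 counts over the BD98 libraries and 3 over the DMSO libraries, a ratio of 10.1 (95% exact interval 3.18 to 51.2, counting error only). Against the trend, RSAD2 (viperin) had 0.3, 0.684 and 0.201 CPM with BD98 and 1.28, 1.11 and 0.981 CPM with DMSO (log2 -1.61), and OASL fell too (log2 -1.29). IFI44L, RSAD2 and OASL were named after their values were seen, and all 3 had few reads.

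The interferon-stimulated response element was searched as TTTC, NN for any 2 bases, and TTTC again, on both strands of the same windows, because a complex with STAT2 and IRF9 is known to bind it. It stood in 1255 of 35116 windows (3.57%), in 452 of the 11726 tested genes with a window (3.85%) and in 21 of 28 interferon genes with a window. Of those 21, 14 rose and 3 fell, and of the 7 without it 4 rose and 1 fell. The medians were 0.47 with and 0.46 without the match. Over all 452 tested genes with the match, 151 rose (33.4%) and 95 fell (21%). Windows of 32 bases are shown, with the match in capitals.
PARP9, chr3:122564321-122564352, minus strand: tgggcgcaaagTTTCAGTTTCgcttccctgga
SAMD9, chr7:93118095-93118126, minus strand: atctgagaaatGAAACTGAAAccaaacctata
ISG15, chr1:1013379-1013410, plus strand: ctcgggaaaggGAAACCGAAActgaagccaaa
IFI44, chr1:78649760-78649791, plus strand: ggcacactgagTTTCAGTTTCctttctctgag

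SAMD9 carries the letters of PARP9 and IFI44 on its other strand. In the antigen presentation list of 15, 9 rose, 2 fell and 4 were not called (median log2 0.34). TAPBP, which loads peptides onto class I molecules, had 139.9, 135 and 142 CPM with BD98 and 80.9, 86.2 and 88 CPM with DMSO (log2 0.71, SE 0.046). HLA-C (log2 0.38) rose, with reads that may be shared among HLA genes. The peptide transporter subunits parted: TAP1 rose (log2 0.45) and TAP2 fell (log2 -0.46). Beside CD55, 3 more complement regulators were measured: CD59 rose to 129, 138 and 136 CPM with BD98, against 88.6, 83.9 and 86.5 CPM with DMSO (log2 0.64), while CLU, clusterin (log2 -1.23), and CD46 (log2 -0.19) fell (median log2 of the 4 genes -0.71). Of 8 NF-kB genes, 1 rose (NFKBIA, log2 0.31), 3 fell and 4 were not called (median log2 -0.24), so 50% were called, against 49.0% of all genes, and without BD98 replicate 2 there were 2 rises.

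Chromatin remodelling genes moved little. Of 28 BAF and PBAF subunits, 15 rose, 4 fell and 9 were not called (median log2 0.17), and none reached 2-fold. BRD7 had 56.8, 70.1 and 62.4 CPM with BD98 and 58.1, 59.8 and 54.1 CPM with DMSO, which did not pass (log2 0.13, adjusted p = 0.0731), and it did pass with library totals as scaling (log2 0.20) and without BD98 replicate 1. BRD9 had 39.1, 38.1 and 41.4 CPM with BD98 and 33.6, 32.4 and 32.1 CPM with DMSO (log2 0.28, SE 0.057, adjusted p = 0.000184). SMARCA4, the ATPase BRG1, had 274, 263 and 281 CPM with BD98 and 223, 222 and 229 CPM with DMSO (log2 0.28, SE 0.038). The BRD7 groups overlap, and those of the other 2 do not. SMARCD3 rose by 1.66-fold and PBRM1, the PBAF subunit with several bromodomains, fell by 1.29-fold. ARID1A rose by 1.11-fold (adjusted p = 0.00723), a call that was lost without BD98 replicate 3. Of 12 polycomb repressive complex 2 genes, 5 rose, 3 fell and 4 were not called (median log2 0.06), but 1 fell without BD98 replicate 1 or 2, without DMSO replicate 1 or 2, or with library totals. Called were 66.7% of this list and 67.9% of the BAF and PBAF subunits, against 49.0% of all genes. RBBP7, a histone-binding subunit, had 185, 190.4 and 190.5 CPM with BD98 and 141, 129.9 and 135 CPM with DMSO (log2 0.48). Of 12 genes known to rise with BET bromodomain inhibitors, most of them histone genes, 9 rose, 0 fell and 3 were not called (median log2 0.43). The median of this list over DMSO was 1.44 in ACBI, 0.35 in 2-77, 0.20 in ENZA and 0.05 in P-16. HEXIM1, which holds the elongation kinase P-TEFb inactive, had 119, 116.5 and 118 CPM with BD98 and 84.9, 85 and 90.3 CPM with DMSO (log2 0.44, SE 0.043), and the histone gene H2BC12 rose (log2 0.70), with reads that may be shared among histone copies.

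Lipid genes were mixed. Of 17 fatty acid genes, 8 fell, 4 rose and 5 were not called (median log2 -0.17). ELOVL7, an elongase that androgen also induces, had 11.5, 10.9 and 10.5 CPM with BD98 and 54.7, 58.1 and 54.6 CPM with DMSO (log2 -2.35, SE 0.082). SCD, the stearoyl-CoA desaturase, had 692, 726 and 717 CPM with BD98 and 1148, 1164 and 1156 CPM with DMSO (log2 -0.70, SE 0.032). Both were lower in each BD98 library. Of 24 cholesterol genes, 10 fell, 2 rose and 12 were not called (median log2 -0.07), so the share called (50%) was that of all genes (49.0%). SREBF2 (log2 -0.49), a regulator of this pathway, fell and TM7SF2 rose (log2 0.32). Of 16 phospholipase A2 and prostaglandin genes, 9 fell, 4 rose and 3 were not called (median log2 -0.20). HPGD, which inactivates prostaglandins, had 2.15, 1.94 and 1.94 CPM with BD98 and 9.72, 9.2 and 8.2 CPM with DMSO (log2 -2.16, SE 0.15), opposite to PLA2G2A.

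All 7 genes of the MondoA list were called, 5 higher and 2 lower (median log2 0.28). ARRDC4, like TXNIP an arrestin gene that MondoA drives when glucose phosphates accumulate, had 35.6, 37 and 34.1 CPM with BD98 and 14.6, 14.9 and 15.2 CPM with DMSO (2.38-fold, adjusted p = 3.15e-14). MLXIP, MondoA itself, rose (log2 0.28). Of 25 hypoxia and glycolysis genes, 11 rose, 7 fell and 7 were not called (median log2 0.02), so 72% were called, against 49.0% of all genes. VEGFA had 224, 221 and 225 CPM with BD98 and 404, 417 and 415 CPM with DMSO (log2 -0.89, SE 0.04). HK2, hexokinase 2, had 82.1, 83.1 and 84.9 CPM with BD98 and 142, 143 and 137 CPM with DMSO (log2 -0.76, SE 0.042). Against these 2 falls, ENO2, an enolase also used as a neuroendocrine marker, had 66.8, 71.2 and 65.3 CPM with BD98 and 40.7, 41.8 and 39.8 CPM with DMSO (log2 0.73). The summed neuroendocrine level was 69.1 to 76 CPM with BD98 and 42.7 to 45.4 CPM with DMSO (exact permutation p = 0.1), but ENO2 made up most of it, CHGB was at 0 in all 6 libraries, CHGA was at 0 in all but 1 DMSO library, and SYP (log2 0.30), NCAM1 (log2 0.20) and SCG3 were not called.

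The summed mesenchymal marker level was 553 to 597 CPM with BD98 and 1018 to 1040.0 CPM with DMSO (exact permutation p = 0.1), which was mostly FN1, fibronectin (log2 -0.88). Of 20 NRF2 targets, 12 fell, 2 rose and 6 were not called (median log2 -0.23): NQO1 had 49.7, 48.7 and 47.6 CPM with BD98 and 71.6, 70.9 and 72.1 CPM with DMSO (log2 -0.56), TKT and ME1 fell (log2 -0.43 and -0.79) and FTL, the ferritin light chain, rose (log2 0.35). Of 26 p53 targets, 10 fell, 9 rose and 7 were not called (median log2 -0.05, mean 0.01), so 73.1% were called, against 49.0% of all genes. CDKN1A, the cell cycle inhibitor p21, had 167, 182 and 178 CPM with BD98 and 272, 271 and 271 CPM with DMSO (log2 -0.62, SE 0.046), while BTG2 (log2 0.82), SESN1 (log2 0.63) and PLK2 (log2 0.64) rose. Of 6 metallothionein and zinc genes 3 fell and 3 were not called (median log2 -0.40; 1 rise without DMSO replicate 1), so 50% were called. Among the falls was MT2A, named after its value was seen (log2 -1.06). Of 7 aryl hydrocarbon receptor genes 3 fell, 1 rose and 3 were not called (median log2 -0.45, mean 0.05), and CYP1A1, at 0.816, 1.48 and 1.11 CPM with BD98 and 0.349, 0.759 and 0.802 CPM with DMSO, was the one that rose (log2 0.76, adjusted p = 0.0252). This call was lost without BD98 replicate 2 or 3, without DMSO replicate 1 and in a fit of the BD98 and DMSO groups alone (adjusted p = 0.126, 0.0554, 0.159 and 0.0739), and without DMSO replicate 3 the list had 2 rises.

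The other 4 compounds, each at its own dose, show where BD98 differs from them and where it does not. Every compound was set against the same 3 DMSO libraries, so folds over DMSO are given side by side, and tests are the direct contrasts of BD98 libraries with the other compound's libraries, in which any difference is also one of dose. Among integrated stress response genes the median log2 fold change over DMSO was -1.60 in BD98, -0.55 in 2-77, -1.50 in ACBI, -0.19 in P-16 and -0.72 in ENZA. In the direct contrasts its 24 genes were lower in BD98 than in P-16 in 24, lower than in 2-77 in 22 and lower than in ENZA in 20, with 0 higher. The background of these contrasts was 43.6%, 42.0% and 42.5% of genes called in either direction. Against ACBI (69.6% called), 9 were lower in BD98, 12 higher and 3 not called, and without ACBI replicate 3 these counts were 9, 11 and 4 (median over DMSO in ACBI -1.53). ATF4, DDIT3, ATF3, CHAC1, PSAT1, SESN2, CTH and SLC7A11 were lower in BD98 than in all 4, as were 6.46% of all genes tested, and 8 of the 24 genes were so without ACBI replicate 3. CHAC1 averaged 5.13 ± 0.217 CPM in BD98, 28.5 ± 1.36 in 2-77, 10.1 ± 1.44 in ACBI, 64.9 ± 2.29 in P-16, 28.7 ± 1.55 in ENZA and 74.5 ± 1.33 in DMSO (SD, n = 3 each). Amino acid transporters had medians over DMSO of -1.14 in BD98, -0.42 in 2-77, -1.39 in ACBI, -0.19 in P-16 and -0.31 in ENZA. Those of cytosolic synthetases were -0.53, -0.20, -0.68, -0.05 and -0.18 in the same order. Against ACBI, 10 transporters were higher and 3 lower in BD98, and 11 synthetases higher and 4 lower.

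**Figure D5:**
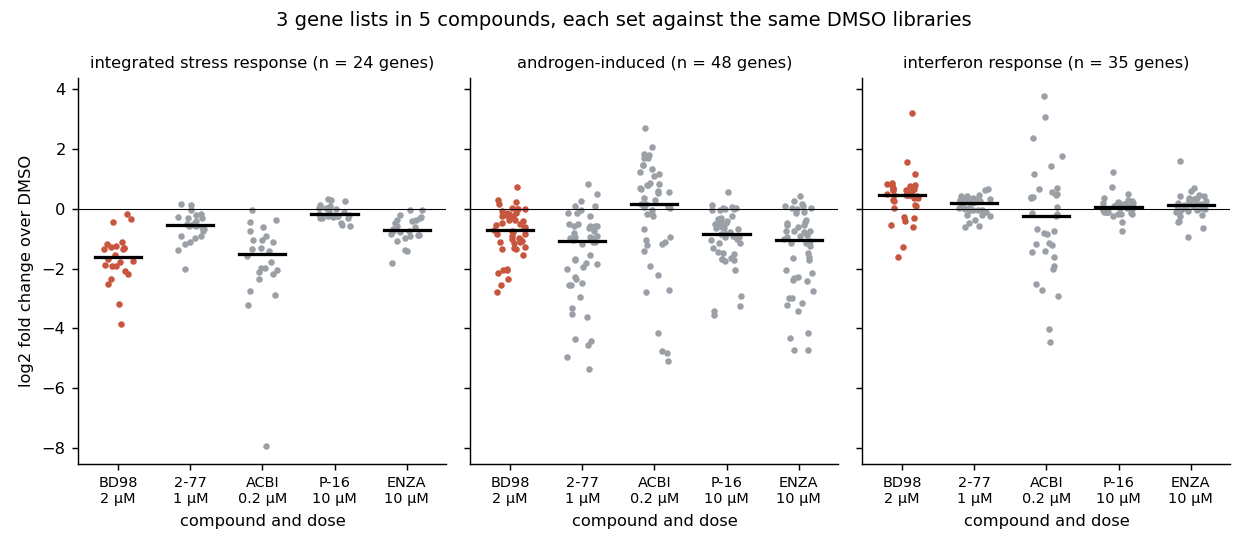
Log2 fold change over the shared DMSO libraries (vertical axis) of the members of 3 gene lists in 5 compounds at the doses on the axis, 1 point per gene, with a black line at each median. BD98 is in red. The median of the integrated stress response list is -1.60 in BD98 and -0.19 in P-16; the lowest ACBI point there (-7.94) is FGF21, which is listed at 0 in all ACBI libraries, so that its fitted value is no measure of size.

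Many androgen-induced genes were higher in BD98 than in ENZA or 2-77. The medians over DMSO were -0.72 in BD98, -1.07 in 2-77, 0.16 in ACBI, -0.83 in P-16 and -1.06 in ENZA. Of the 48 genes, 29 were higher and 9 lower in BD98 than in ENZA, 32 higher and 8 lower than in 2-77, 23 higher and 15 lower than in P-16, and 14 higher and 30 lower than in ACBI (14 and 31 without ACBI replicate 3). Of all genes, 42.5%, 42.0%, 43.6% and 69.6% were called in these contrasts, in either direction. KLK3 averaged 2557 ± 49.5 CPM in BD98, 737 ± 23.7 in 2-77, 654 ± 24 in ACBI, 2399 ± 15.3 in P-16, 961 ± 1.61 in ENZA and 4277 ± 46.6 in DMSO. The log2 difference of BD98 minus ENZA was 1.41 for KLK3 (adjusted p = 2.03e-24), and that of BD98 minus P-16 only 0.09 (adjusted p = 0.0176). ACP3 averaged 19.1 ± 1.22 CPM in BD98, 185 ± 7.65 in 2-77, 4.59 ± 0.173 in ACBI, 127 ± 3.64 in P-16, 178 ± 5.04 in ENZA and 131 ± 2.55 in DMSO, with a log2 difference of BD98 minus ENZA of -3.23 (adjusted p = 1.94e-28). It was lower in BD98 than in 2-77, P-16 and ENZA, and higher than in ACBI (log2 2.05, adjusted p = 8.45e-21).

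Interferon genes had medians over DMSO of 0.46 in BD98, 0.19 in 2-77, -0.25 in ACBI, 0.05 in P-16 and 0.12 in ENZA. Of the 35, 21 were higher and 3 lower in BD98 than in ENZA, where 42.5% of all genes were called in either direction. DNA replication genes had medians of 0.18 in BD98, -0.19 in 2-77, -2.01 in ACBI, -0.10 in P-16 and -0.25 in ENZA, and 30 of the 38 were higher in BD98 than in all 4, against 6.89% of all genes tested, and again 30 without ACBI replicate 3. Mitosis genes, lower than DMSO in BD98, had still lower medians in the other compounds: -0.23 in BD98, -0.59 in 2-77, -4.02 in ACBI, -0.35 in P-16 and -0.60 in ENZA. Among the 20 immediate-early genes, FOS, JUN, DUSP5, SPRY4, EGR1, JUND, IER2 and FOSL2 were lower in BD98 than in all 4, as were 6.46% of all genes tested. FOSL2 was so although it was above DMSO. The changes of SPRY4 and EGR1 in BD98 against DMSO had wide SEs (0.67 and 0.28), and FOS had few reads with BD98. Of the 12 largest falls with BD98, 8 were lower than in all 4 compounds, and of the 12 largest rises, 9 were higher, which describes genes chosen on the same BD98 libraries. CD55 averaged 0.192 ± 0.0364 CPM in BD98, 3.53 ± 0.907 in 2-77, 3.78 ± 0.402 in ACBI, 6.7 ± 0.924 in P-16 and 5.57 ± 0.389 in ENZA. The UGT2B genes that rose with BD98 differed among the other compounds. UGT2B11 had log2 fold changes over DMSO of -0.84 in 2-77, -1.20 in ACBI, -1.64 in P-16 and -0.54 in ENZA. UGT2B17 had 1.09 in 2-77, -2.88 in ACBI, 1.14 in P-16 and 1.52 in ENZA. UGT2B15 had 1.71 in 2-77, -1.92 in ACBI, 0.86 in P-16 and 2.18 in ENZA, and was lower in BD98 than in ENZA (log2 -0.30, adjusted p = 1.43e-06). TXNIP averaged 448 ± 9.2 CPM in BD98, 399 ± 1.63 in 2-77, 355 ± 4.75 in ACBI, 132 ± 4.47 in P-16 and 390.0 ± 5.03 in ENZA, so all but P-16 lay well above DMSO (121 ± 4.41 CPM).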

How the data were processed

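Stranded messenger RNA libraries were read by sequencing. The submitters' processing notes name STAR, Partek, DESeq2 and build hg38; the counting program, its annotation and use of strand are not given in the sources used here. The authors deposited 1 table of expected counts (estimated counts of reads per gene, with decimals, not scaled to depth), with chromosome, start and stop; 0 sample columns were left unused. The columns named SCO277 and PB_16 were taken as 2-77 and P-16. Gene ends are given as the listed stop minus 1 base.

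The counts, rounded, went into edgeR 4.0.16 (R 4.3.3) for tests: filterByExpr over the 6 groups (4723 of 20145 genes removed), TMM, a robust quasi-likelihood fit to all 18 libraries (12 residual degrees of freedom, common biological coefficient of variation 0.0573), two-sided F tests, and Benjamini-Hochberg adjustment over all 15422 genes at 0.05. A standard error (SE) was taken from the fold change and its F value. Levels are CPM of TMM-scaled library sizes, and mean ± SD is over 3 libraries. Between replicates the chi-square of counts per degree of freedom was 3.02 to 5.50 in BD98, so no library was a copy of another. Reads carry no molecular identifiers, so intervals cover counting error only.

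The gene lists (30 with measured members, besides 5 of markers; 0 mitochondrially encoded genes were in the table), the tests and the rule for named genes were chosen with earlier results of these data known, and 26 of 645 listed genes stand on more than 1 list. The rule took the 12 largest rises and falls whose groups did not overlap and whose higher group averaged 4 CPM or more, 5 members per list by smallest p, the whole integrated stress response list and a panel of genes. Some genes of the rule are not reported here. Other genes were named after their values were seen, or for an overlap or a shared sequence. Of the 180 genes of the rule, 37 overlap another tested gene, 7 of them on the same strand, so their reads may be shared. Data for all 18 libraries were simulated from the DMSO levels and the fitted spread (15056 genes), with 45 to 50 genes changed at each size. Of these, 53.2% changed by 25%, 71.1% at 1.5-fold, 70% at 2-fold and 96% at 4-fold were recovered, and 7 of 147 calls were of unchanged genes. Far fewer genes were changed than were called in the real comparison (49.0%). The adjusted threshold was therefore stricter in the simulation, and its shares do not give the recovery in the real comparison. Promoter windows are from RefSeq GRCh38.p14, matched by symbol for 11726 tested genes. Alternatives were DESeq2 1.42.0, other scalings and filters, other sets of libraries and a replicate block. SciPy 1.17.1 and matplotlib 3.10.9 in Python 3.11.15 were used for exact tests and figures.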

Additional observations from a re-analysis of the deposited data

How the results depend on the processing

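The count of genes called in BD98 against DMSO (7559) was 7542 with RLE factors, 7509 with library totals, 7442 with no filter on low counts, 7034 with a mean of at least 2 CPM, 7954 without the 3 ACBI libraries, 7678 in a fit of the BD98 and DMSO groups alone, 7239 with DESeq2, and 6663 to 6998 with a library left out. No gene called both in the main fit and under one of these alternatives changed sign. With library totals 61.8% of calls were higher in BD98, against 50% with TMM, and the median log2 fold change of all genes was 0.06. The filter at a mean of 2 CPM left 389 calls of at least 2-fold (833 as reported), of which 92 were rises (235 as reported) and 297 falls (598 as reported), since it tests 12727 genes in place of 15422. Deviations of same-numbered BD98 and DMSO libraries showed no clear relation (correlations -0.03, 0.02 and 0.04). This cannot exclude pairing, as counting error enters these correlations. With a replicate block 7388 genes were called, 7347 of them as in the main fit. Of 2516 refitted values of 180 named genes, 2498 kept their direction and side of the threshold, 10 lost the call and 8 gained it, in 11 genes, and 0 reversed. The losses were in AHR, ARID1A, CYP1A1, EARS2, NFKB1 and TXN. Of 980 counts of list members, 53 moved by more than 1.5 times, and the integrated stress response list had 23 falls in each leave-one-out fit. Genes with few reads, such as CD55, FGF21 and IFI44L, are limited by depth. Leaving out a library also moved the rises of the MYC list (2, and 1 without BD98 replicate 2 or DMSO replicate 1) and the NRF2 list (2, and 1 without BD98 replicate 3 or DMSO replicate 2 or 3), and the falls of the MondoA list (2, and 1 without DMSO replicate 1). The values without ACBI replicate 3 were chosen after seeing the data.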

Other observations

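Gene families outside the lists were looked at after their values had been seen, and are given as values. Of 15 measured protocadherin beta genes, neural cadherins clustered on chromosome 5, 11 rose, 0 fell and 4 were not called in BD98 against DMSO (median log2 0.82). PCDHB5 averaged 52 ± 2.49 CPM in BD98 libraries and 29.5 ± 0.773 CPM in DMSO libraries (log2 0.82, edgeR adjusted p = 1.52e-12), and PCDHB14 9.85 ± 1 CPM in BD98 libraries and 3.62 ± 0.588 CPM in DMSO libraries (log2 1.43, adjusted p = 6.77e-10; SD, n = 3 each). Of 21 protocadherin gamma genes 10 rose and 0 fell (median log2 0.32), and of 5 protocadherin alpha genes 0 were called. Called were 73.3% of the beta and 47.6% of the gamma genes, against 49.0% of all genes, so the gamma share lay near that of all genes. Protocadherins of a cluster are close copies, and the gamma genes share exons, so reads may be shared among them.

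Of 80 cytosolic ribosomal protein genes, 56 fell, 1 rose and 23 were not called (median log2 -0.18), against 27 falls and 6 rises among 77 mitochondrial ribosomal protein genes (median log2 -0.10). Of 37 proteasome subunits 8 fell and 5 rose. These are 42.9% of the mitochondrial ribosomal and 35.1% of the proteasome genes called, below the 49.0% of all genes. Of 23 collagen genes 8 rose and 4 fell, so 52.2% were called, close to the 49.0% of all genes. COL12A1 averaged 31.6 ± 0.707 CPM in BD98 libraries and 9.71 ± 0.32 CPM in DMSO libraries (log2 1.70, adjusted p = 2.67e-16), and COL5A2 14.1 ± 0.592 CPM in BD98 libraries and 4.46 ± 0.177 CPM in DMSO libraries (log2 1.66), while COL16A1 fell (log2 -1.65). UGT2B7 had 78 counts over the BD98 libraries and 4 over the DMSO libraries, a ratio of 16.4 (95% exact interval 6.15 to 61.6, counting error only).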
